A study of Homo sapiens with 16 samples.

Results

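The mitotic genes described here are 52 listed genes that act from late G2 to the end of division: mitotic cyclins and kinases, the spindle checkpoint, centromere and kinetochore proteins, spindle motors and proteins of cytokinesis. They were chosen by name, with earlier results of these data known. Each was read from the array row annotated to that gene alone, taking the row with the highest mean where a gene had several. Of the 52, 51 had such a row and all 51 were tested, among 12978 genes tested in all. CENPA, the centromeric histone, lay on a row shared with another gene, so no value is given for it. Levels were measured on Affymetrix arrays in 16 untreated cultures from 3 established human cancer lines with or without functional STAG2. The gene encodes a subunit of cohesin, the ring-shaped complex that links sister chromatids until anaphase. H4 and 42MGBA are labelled glioblastoma cells and carry a mutant STAG2, while HCT116, derived from a colorectal carcinoma, is wild-type for STAG2. The STAG2-deficient H4 arrays were parental cells and 2 non-recombinant clones, 10 and 12, and the corrected ones were the knock-in clones 8-1, 8-3 and 88-1 after Cre recombination. In 42MGBA the parental line and the knock-in clones 53 and 92 before Cre were labelled deficient, and the clones 53-1, 53-7 and 92-6 after Cre were labelled corrected. The HCT116 arrays were the knockout clones 7 and 21 and the non-recombinant wild-type clones 24 and 27. All cells grew asynchronously in DMEM with serum and were harvested below confluence. Each array stands for 1 clone or 1 parental culture, so a difference between groups also holds differences between clones, and 8-1 with 8-3, like 53-1 with 53-7, share a parent clone.

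Entry into mitosis is driven by CDK1 with cyclin A or B, and exit by the anaphase-promoting complex, a ubiquitin ligase that destroys cyclin B and securin so that separase can cleave cohesin. The spindle checkpoint holds that ligase back until each kinetochore, the protein plate on a centromere, has bound spindle microtubules. Transcripts of many of these genes rise together in G2 and mitosis. In an asynchronous culture a lower level of such a transcript can come from fewer dividing cells or from less RNA in each cell. The arrays cannot tell these apart.

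Many late cell cycle promoters carry a CHR, the cell cycle genes homology region that the MuvB complex binds, near CCAAT boxes, which bind NF-Y. The promoters of 5 members are shown as examples from the results below: KIF18A differed most in HCT116, MKI67, CENPF and BUB1B had some of the largest negative differences in H4, and CCNB2 was 1 of the members whose 42MGBA groups did not overlap. Each run has the 250 bases before the annotated start and 50 bases from it, in the direction of transcription, from RefSeq on GRCh38.p14. Capitals mark the CHR letters TTTGAA or TTCGAA and the letters CCAAT, searched on both strands, where CCAAT on the other strand reads ATTGG. The windows are chr11:28108107-28108406 on the minus strand for KIF18A, chr10:128126374-128126673 on the minus strand for MKI67, chr1:214602945-214603244 on the plus strand for CENPF, chr15:40160819-40161118 on the plus strand for BUB1B and chr15:59104896-59105195 on the plus strand for CCNB2.
KIF18A: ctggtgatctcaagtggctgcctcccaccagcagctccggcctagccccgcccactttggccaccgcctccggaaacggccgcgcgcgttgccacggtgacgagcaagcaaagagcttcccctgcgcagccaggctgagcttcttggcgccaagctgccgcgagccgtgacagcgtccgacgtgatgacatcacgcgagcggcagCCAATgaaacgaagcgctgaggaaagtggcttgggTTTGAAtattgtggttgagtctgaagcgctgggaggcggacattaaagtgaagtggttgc
MKI67: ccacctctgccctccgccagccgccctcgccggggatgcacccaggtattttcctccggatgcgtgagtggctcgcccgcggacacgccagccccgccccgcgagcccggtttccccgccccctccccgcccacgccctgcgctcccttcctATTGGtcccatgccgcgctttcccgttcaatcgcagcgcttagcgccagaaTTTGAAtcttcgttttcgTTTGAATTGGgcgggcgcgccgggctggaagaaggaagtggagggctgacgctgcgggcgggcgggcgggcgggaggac
CENPF: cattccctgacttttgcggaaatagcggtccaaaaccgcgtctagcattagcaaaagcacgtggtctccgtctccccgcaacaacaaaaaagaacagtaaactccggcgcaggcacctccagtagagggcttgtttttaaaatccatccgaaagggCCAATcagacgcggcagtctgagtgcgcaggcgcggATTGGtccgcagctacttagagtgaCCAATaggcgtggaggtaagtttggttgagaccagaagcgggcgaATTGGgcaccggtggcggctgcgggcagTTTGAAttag
BUB1B: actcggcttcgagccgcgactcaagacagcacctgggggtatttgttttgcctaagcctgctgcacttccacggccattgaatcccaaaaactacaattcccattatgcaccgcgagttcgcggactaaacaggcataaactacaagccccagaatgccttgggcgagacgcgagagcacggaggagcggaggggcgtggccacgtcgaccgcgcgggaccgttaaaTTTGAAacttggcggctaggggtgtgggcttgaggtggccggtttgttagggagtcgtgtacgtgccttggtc
CCNB2: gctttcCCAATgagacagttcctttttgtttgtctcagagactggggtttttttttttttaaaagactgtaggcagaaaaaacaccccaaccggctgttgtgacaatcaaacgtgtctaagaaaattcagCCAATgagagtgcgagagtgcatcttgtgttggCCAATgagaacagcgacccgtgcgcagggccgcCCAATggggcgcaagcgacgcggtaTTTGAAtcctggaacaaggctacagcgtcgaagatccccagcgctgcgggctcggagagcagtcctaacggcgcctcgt
In KIF18A the CHR letters began 10 bases before the start and a CCAAT 45 bases before it. In MKI67 they began 47 and 29 bases before the start, and the second overlapped an ATTGG. CENPF had 4 CCAAT matches and its CHR letters lay at base 41 after the start. BUB1B had CHR letters 23 bases before the start and no CCAAT in the window. CCNB2 had 4 CCAAT matches at 244, 120, 87 and 54 bases before the start, with CHR letters at 29 bases before it. All 5 promoters shown thus had CHR letters. Other members named for their differences below had none in their windows: CENPK and CENPI in H4, CENPE in HCT116 and KIF20A in 42MGBA.

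RefSeq windows were matched for 43 of the 51 members by symbol. The CHR letters occurred in 29 of these 43 promoters, or 67.4%, against 11.4% of the 10310 promoters of tested genes and 16.8% of all 27305 promoters. CCAAT occurred in 34, or 79.1%, against 35.8% of the promoters of tested genes and 35.6% of all. Both were present in 24, or 55.8%, against 4.74% of tested genes and 6.63% of all. A match is a description of letters and not a measured binding site. The 29 members with CHR letters and the 14 without had similar STAG2 differences: the median log2 difference was -0.14 with the letters and -0.17 without them in H4, -0.10 and -0.06 in 42MGBA, and 0.09 and 0.07 in HCT116. No test was made between these sets.

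The deposited values were log2 levels, and differences below are deficient minus proficient means on that scale from limma, with its standard error (SE) and an adjusted p over all genes tested. STAG2 itself was 6.57, 6.96 and 6.62 on the deficient H4 arrays, against 8.95, 8.91 and 8.87 on the corrected ones, and 6.57 and 7.14 in HCT116 knockouts, against 9.28 and 9.30 in wild-type clones. In 42MGBA it was 4.75, 5.34 and 5.60 on arrays labelled deficient, against 5.65, 5.41 and 5.53 on those labelled corrected, so the groups overlapped and the transcript did not check those labels. Medians of all rows were 6.23 to 6.302 on H4 and HCT116 arrays and 5.001 to 5.047 on 42MGBA arrays. Interquartile ranges were 3.55 to 3.64 and 3.15 to 3.20 in the same order. The 42MGBA arrays therefore stood on another scale, and their levels were compared with the other lines only by percentile. Their STAG2 differences were compared on the log2 scale, where the narrower range limits that comparison. Of 15 colorectal epithelial marker genes, 7 averaged above the 75 percentile of their array in each HCT116 group and 1 or 2 in each H4 and 42MGBA group. EPCAM, an epithelial adhesion gene, stood at 97.0 in HCT116, while the intestinal markers KRT20, CEACAM5 and VIL1 stood between 22.2 and 32.4 there. Other intestinal markers of the list stood higher in the wild-type and knockout groups. These were CDX2 (69.5 and 70.7), CDX1 (57.0 and 56.7) and LGALS4 (49.5 and 49.4). Of 15 neural and glial marker genes, 2 (VIM and CNP) averaged above 75 in each H4 and 42MGBA group and 1 (CNP) in each HCT116 group. The list's median was 44.5 to 47.6 in H4 and 42MGBA groups and 39.5 to 40.7 in HCT116 groups. Of the glial genes, OLIG1 (54.7 to 72.7), SLC1A3 (62.1 to 69.3) and SOX10 (54.6 to 58.4) stood above the middle of the H4 and 42MGBA arrays. They did so in HCT116 groups as well, at 55.7 to 57.4, 67.3 to 71.8 and 58.3 to 58.8. Below the middle in H4 and 42MGBA were GFAP (44.6 to 49.9), OLIG2 (29.5 to 35.5) and S100B (20.8 to 25.4). MBP (27.5 to 37.9), FABP7 (14.3 to 19.6), PTPRZ1 (10.6 to 16.3) and AQP4 (8.7 to 16.9) were also below it there.

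None of the 51 mitotic genes changed in any of the lines at an adjusted p under 0.05 by limma. In H4, 0 of 51 passed, where 3.31% of all genes tested did, and 5 had an unadjusted p under 0.05, all of them lower in deficient cells. Those 5 make 9.80% of the members, against a background of 16.4% in either direction and 7.58% lower. The count rested on single arrays. It was 13, or 25.5% against 18.8% of genes, without the parental array. It was 0 without clone 10, clone 12 or clone 8-1, where 15.8%, 12.9% and 14.7% of genes had such a p. In 42MGBA, 0 passed, where 0% of all genes did, and 1 member, CENPN, had an unadjusted p under 0.05, against 3.95% of genes. In HCT116, 0 passed, where 0.131% of genes did, and 3 had an unadjusted p under 0.05, all of them higher in knockouts, against 7.83% of genes in either direction and 3.75% higher. The lowest adjusted p was 0.185 in H4, 1.00 in 42MGBA and 0.137 in HCT116. The median half-width of a member's 95% interval was 0.35 in H4 and in 42MGBA and 0.43 in HCT116, which is the size below which the interval of a member with median spread included 0.

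Signs were uneven. The deficient mean was below the corrected one for 40 of 51 members in H4, or 78.4%, against 45.6% of all genes tested, with a median difference of -0.14, against 0.02 over all genes. In 42MGBA it was below for 37 of 51, or 72.5%, against 60.3% of genes, with a median of -0.08, against -0.03. In HCT116 the knockout mean was above the wild-type mean for 37 of 51 and below it for 14, or 27.5%, against 53.4% of genes below, with a median of 0.08, against -0.01. Members ranged between -0.44 and 0.17 in H4, between -0.36 and 0.17 in 42MGBA and between -0.35 and 1.06 in HCT116. No member reached 1.5-fold in H4 or 42MGBA, where 3.52% and 0.462% of genes did, and KIF18A alone did in HCT116, where 1.71% of genes did.

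**Figure D1:**
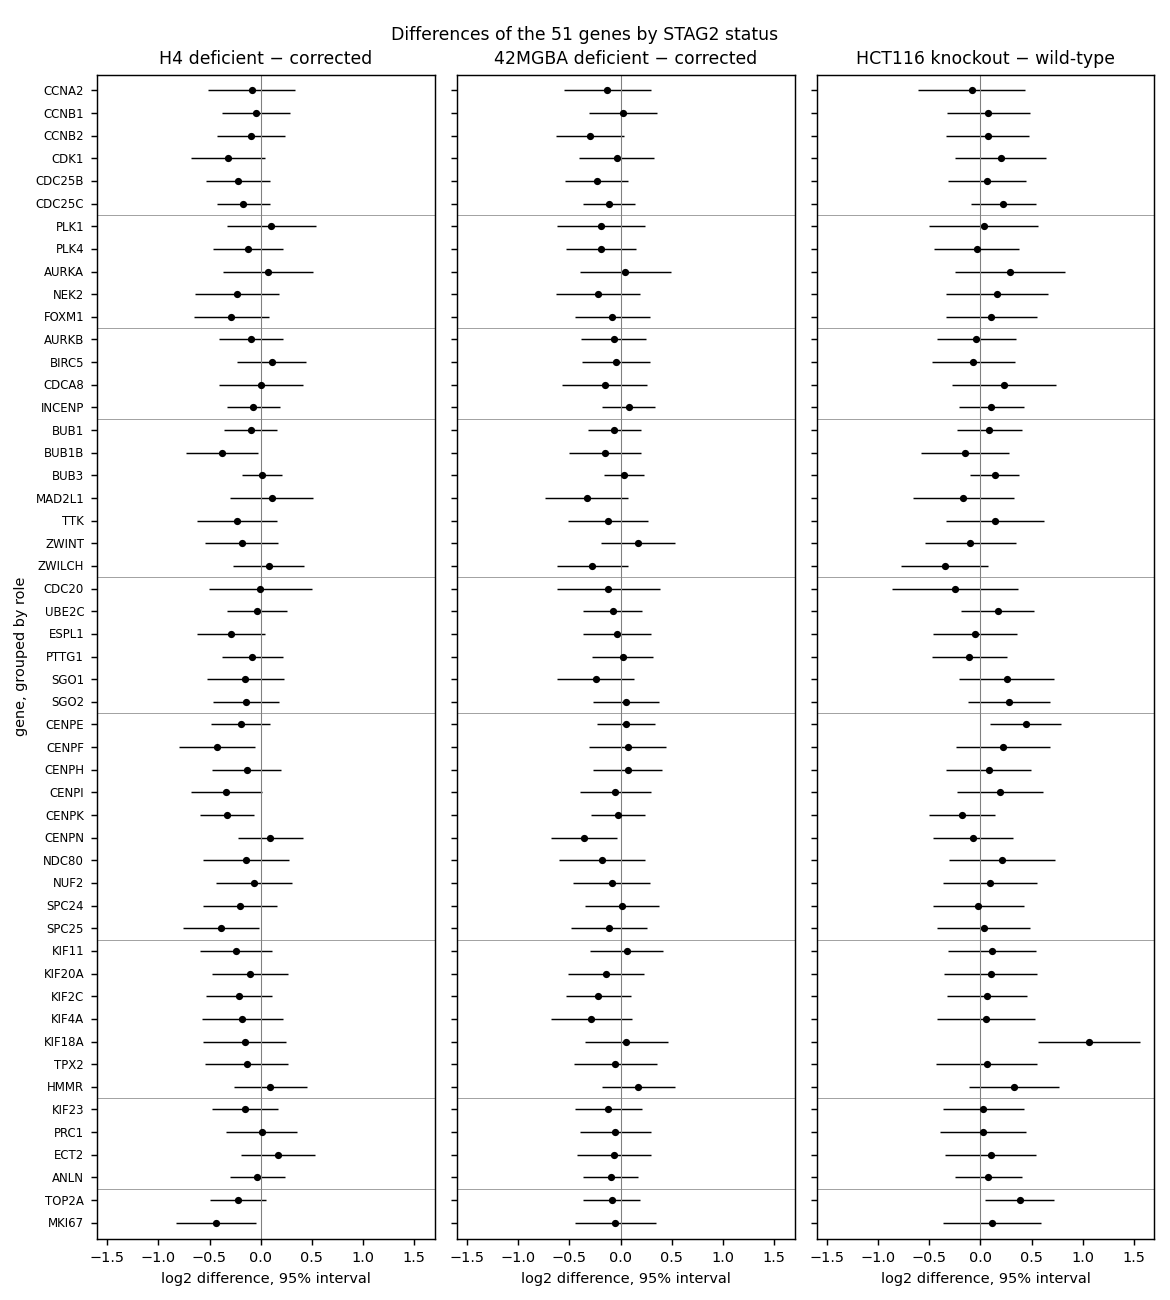
Log2 differences of the 51 mitotic genes (deficient minus proficient, limma; bars are 95% intervals) in H4, 42MGBA and HCT116, ordered by role. Most H4 values lie left of 0, most HCT116 values lie right of it, and KIF18A in HCT116, at 1.06, lies farthest from 0.

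Direction depended on single arrays. Clone 10, a deficient H4 clone, was the lowest H4 array for 44 of 51 members, and its median deviation from the line's mean was -0.33 with all 51 members below it. Clone 8-1, a corrected clone, was the highest for 38 members, with a median deviation of 0.28. The deficient parental array stood at 0.18, above the corrected clones 8-3 at -0.14 and 88-1 at 0.04, while the deficient clone 12 stood at -0.06. So the groups overlapped: no member had all deficient H4 arrays on 1 side of all corrected ones, where 12.1% of genes did so upward and 8.68% downward. Without clone 10 the H4 median became 0.02 with 25 of 51 members negative, without 8-1 it was -0.02 with 29 negative, and without the parental array it was -0.26 with 47 negative.

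In 42MGBA the spread within the groups was again wide. Clone 53, labelled deficient, was the lowest array for 35 members with a median deviation of -0.22, while the parental array, also labelled deficient, was the highest for 30 and stood at 0.19. Clone 92 stood at -0.07, and the corrected clones 53-1, 53-7 and 92-6 at -0.02, 0.10 and 0.05. Without clone 53 the median difference was 0.03 with 21 of 51 negative, and without the parental array it was -0.22 with 47 negative.

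The 42MGBA clone names also pair each clone before Cre with its own descendants. Clone 53 was below the mean of 53-1 and 53-7 for 46 of 51 members, with a median difference of -0.31, where 57.6% of all genes were below. Clone 92 was below 92-6 for 37 of 51, with a median of -0.14, where 59.9% of genes were below. Blocking on these families, without the parental array, gave 0 members that passed the limma test, where 0% of genes did. At an unadjusted p under 0.05 there were 14 members, all lower, which is 27.5% against 7.95% of genes. Leaving out the parental arrays without a block gave 9 members, all lower, or 17.6% against 5.33% of genes. The fit reported, which keeps the parental arrays and has no block, had 1 member against 3.95%. The blocked fit also took its spread from 42MGBA arrays alone. The lowest adjusted p of a member with the block was 0.505.

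In HCT116, 23 members had both knockouts above both wild-type clones and 6 had both below, where 18.5% and 22.1% of genes did. Median deviations were small there: knockout clones 7 and 21 stood at -0.01 and 0.07, against -0.03 and -0.05 for wild-type clones 24 and 27. Knockout clone 21 was the highest array for 29 members, and without it the median difference was 0.032, against 0.14 without clone 7.

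**Figure D2:**
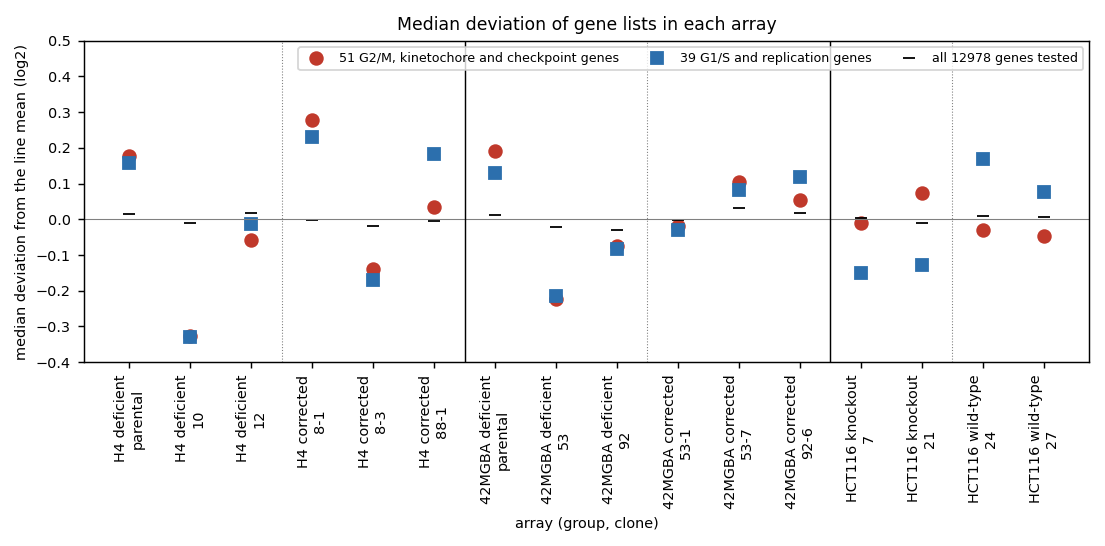
Median deviation (log2, from the mean of the line's arrays) of the 51 mitotic genes, the 39 tested G1/S genes and all tested genes on each of the 16 arrays. Clone 10 at -0.33 and clone 8-1 at 0.28 mark the ends of the H4 range, and all tested genes stay near 0 on every array.

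Replicate spread was wide for these genes in the brain tumour lines. The median SD within a group was 0.27 in deficient and 0.21 in corrected H4 cells, against 0.15 and 0.11 for all genes tested in the same groups. In 42MGBA it was 0.24 and 0.15 in the groups labelled deficient and corrected, against 0.12 in each for all genes. HCT116 members varied less, with 0.10 in knockouts and 0.05 in wild-type clones, where all genes had 0.11 and 0.08. CDC20, which activates the anaphase-promoting complex, had the widest spread in deficient H4 cells, an SD of 0.57 (n = 3).

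Genes of DNA replication were set beside the mitotic genes on each array. A list of 39 tested G1/S genes had median deviations of -0.33 on clone 10, 0.23 on 8-1, 0.16 on the parental H4 array and -0.17 on 8-3, and of -0.21 on clone 53 and 0.13 on the parental 42MGBA array, close to the mitotic values there. On 88-1 it stood at 0.18, above the mitotic genes at 0.04, and on 92-6 at 0.12, against 0.05. In HCT116 the 2 lists parted: the G1/S list stood at -0.15 and -0.13 on knockout clones 7 and 21, against 0.17 and 0.08 on wild-type clones 24 and 27. Of these 39 genes, 38 had a lower mean in knockouts, where 53.4% of all genes did, with a median difference of -0.26, but 0 passed the test by limma. The part of the G1/S shift in the mitotic differences was not tested.

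**Figure D3:**
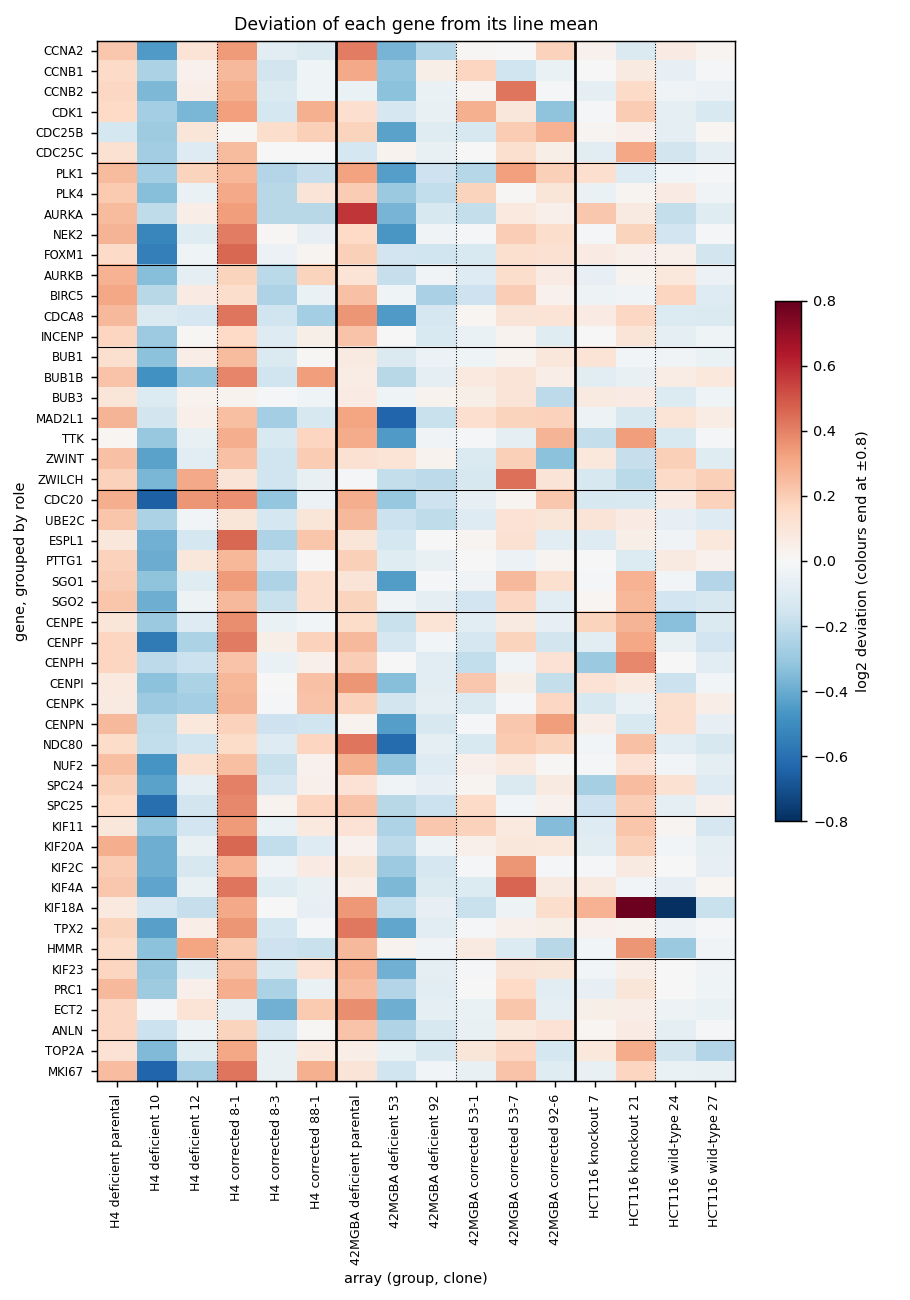
Deviation of each of the 51 mitotic genes (rows, by role) from its mean over the arrays of the line (log2, colour) on the 16 arrays (columns, by group). In H4 the column of clone 10 is low and that of 8-1 high for nearly all genes, those of clone 12 and 88-1 are mixed, and KIF18A in HCT116 departs from the genes around it.

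Among the cyclins, CDK1 and its phosphatases, all 6 members had a lower mean in deficient H4 cells, with a median difference of -0.13. CDK1, the kinase that drives mitotic entry, had the largest of these, -0.32 (adjusted p = 0.379 by limma). CCNB1, the main mitotic cyclin, differed by -0.05 in H4, 0.03 in 42MGBA and 0.08 in HCT116. In 42MGBA 5 of the 6 had a negative difference and in HCT116 1 of the 6, CCNA2, the cyclin of S phase and mitotic entry.

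CCNB2, a second B-type cyclin, was 8.14, 7.86 and 8.14 on the 42MGBA arrays labelled deficient, against 8.21, 8.62 and 8.18 on those labelled corrected. Its groups did not overlap, but the gap between them was small and clone 53-7 alone stood well above the rest. The difference was -0.29 (SE 0.16, adjusted p = 1.00 by limma), and without clone 53-7 it was -0.15. KIF20A, a cytokinesis kinesin, was the other member of 51 whose 42MGBA groups did not overlap, lower in both cases, where 6.33% of genes were lower without overlap and 2.57% higher. CDC25B, a phosphatase that activates CDK1, was 8.33, 7.72 and 8.05 on arrays labelled deficient, against 8.02, 8.35 and 8.43 on those labelled corrected. The groups overlapped, and its difference was -0.23 (SE 0.15). CDC25C, which acts on the same kinase, was 8.01 and 8.41 in HCT116 knockouts, against 7.95 and 8.02 in wild-type clones. The groups overlapped and clone 21 alone stood apart, and the difference of 0.23 (SE 0.15, adjusted p = 0.754 by limma) became 0.03 without it.

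The mitotic kinases and FOXM1, the transcription factor of many G2/M genes, showed no member past the test in any STAG2 comparison. PLK1, the polo kinase of mitotic entry and spindle assembly, differed by 0.10 in H4, -0.19 in 42MGBA and 0.03 in HCT116. AURKA, a kinase of the spindle poles, differed by 0.07, 0.05 and 0.29 in the same order of lines and was 1 of 3 members positive in all 3, with BUB3 and HMMR, where 10.5% of genes were. NEK2, a centrosome kinase, differed by -0.23, -0.22 and 0.17. FOXM1 was -0.29 in H4, -0.08 in 42MGBA and 0.11 in HCT116.

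The chromosomal passenger complex, which corrects faulty kinetochore attachments, consists of AURKB and its partners BIRC5, CDCA8 and INCENP. Its 4 genes differed by at most 0.11 in either direction in H4, by -0.15 to 0.08 in 42MGBA and by -0.07 to 0.23 in HCT116. BIRC5, or survivin, had a further row of its own on the array, whose differences of 0.03, 0.20 and 0.07 did not match the 0.11, -0.04 and -0.07 of the brighter row used here. AURKB, the kinase of the complex, was negative in all 3 lines, by -0.09, -0.07 and -0.04. It was 1 of 7 members of which this held, with CCNA2, PLK4, BUB1B, CDC20, ESPL1 and CENPK, where 14.6% of genes were.

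Spindle checkpoint genes were mixed. BUB1B, the checkpoint protein BubR1, was 9.54, 8.83 and 9.002 on deficient H4 arrays, against 9.70, 9.15 and 9.65 on corrected ones. The parental array lay among the corrected clones while clones 10 and 12 lay below all of them. The difference was -0.38 (SE 0.16, adjusted p = 0.263 by limma). It was -0.58 (adjusted p = 0.0329) without the parental array but -0.23 without clone 10, so its size rested on single arrays. MAD2L1, which binds and holds back CDC20, was 6.58, 5.62 and 6.08 on the 42MGBA arrays labelled deficient, against 6.39, 6.44 and 6.45 on those labelled corrected. The corrected clones were nearly equal and the deficient arrays spread on both sides of them, which gave -0.33 (SE 0.19). The difference was -0.10 without clone 53 and -0.57 without the parental array.

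ZWILCH, part of the complex that brings checkpoint proteins to kinetochores, was 9.11 and 9.03 in HCT116 knockouts, against 9.40 and 9.44 in wild-type clones. The groups did not overlap and the difference was -0.35 (SE 0.20, adjusted p = 0.715 by limma). In 42MGBA it was 7.42, 7.24 and 7.22 on arrays labelled deficient, against 7.30, 7.87 and 7.53 on those labelled corrected, a difference of -0.27 (SE 0.16) with overlap. BUB1, the checkpoint kinase, differed by -0.10, -0.06 and 0.09 in H4, 42MGBA and HCT116, and TTK, the kinase that starts checkpoint signalling, by -0.23, -0.13 and 0.14.

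The next group joins the partners of the anaphase-promoting complex to the proteins that cut or shield cohesin. In H4 all 6 had a negative difference, from -0.29 for ESPL1, which encodes separase, to less than 0.01 in size for CDC20. PTTG1, or securin, the inhibitor of separase, differed by -0.08 in H4, 0.02 in 42MGBA and -0.11 in HCT116. SGO1 and SGO2, shugoshins that shield centromeric cohesin, differed by -0.15 and -0.14 in H4, by -0.24 and 0.05 in 42MGBA, and by 0.26 and 0.28 in HCT116. The highest of these, SGO2 in HCT116, had an adjusted p of 0.756 by limma.

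Centromere and kinetochore genes held most of the lowest p-values in H4, where 9 of 10 were negative with a median of -0.20. CENPK, a subunit of the constitutive centromere complex, was 8.62, 8.26 and 8.28 on deficient arrays, against 8.82, 8.54 and 8.78 on corrected ones. Only the parental array reached into the range of the corrected clones, and the difference of -0.33 (SE 0.12) had the lowest adjusted p of any member in H4, 0.185 by limma. CENPF, a large kinetochore protein of G2 and mitosis, was 10.16, 9.42 and 9.73 in deficient cells, against 10.40, 10.03 and 10.16 in corrected ones. Here too clones 10 and 12 were below every corrected clone and the parental array was not. Its difference was -0.43 (SE 0.18, adjusted p = 0.226 by limma). It was -0.62 (adjusted p = 0.0461) without the parental array but -0.25 without clone 10.

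SPC25, a subunit of the NDC80 complex that binds microtubules, was 8.40, 7.63 and 8.09 on deficient H4 arrays, against 8.62, 8.27 and 8.41 on corrected ones. Clone 10 was far below the others, and the difference was -0.39 (SE 0.17, adjusted p = 0.274 by limma). CENPI, of the constitutive centromere complex, was 9.17, 8.77 and 8.84 in deficient cells, against 9.36, 9.10 and 9.33 in corrected ones. It gave -0.34 (SE 0.16, adjusted p = 0.318), with the same overlap through the parental array. The other NDC80 complex genes in H4, NDC80, NUF2 and SPC24, had differences of -0.14, -0.07 and -0.21.

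CENPN, which reads the centromeric histone, had the lowest p of the members in 42MGBA, with 7.66, 7.19 and 7.50 on arrays labelled deficient, against 7.61, 7.84 and 7.96 on those labelled corrected. The parental array stood above clone 53-1, so the groups overlapped, and the difference was -0.36 (SE 0.15, adjusted p = 1.00 by limma). In H4 the same gene differed by 0.09. CENPE, the kinesin that moves chromosomes to the spindle equator, was 7.79 and 7.88 in HCT116 knockouts, against 7.28 and 7.50 in wild-type clones. Both knockouts were above both wild-type clones, and the difference was 0.45 (SE 0.16, adjusted p = 0.521).

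Motors and spindle proteins were positive in HCT116 for 7 of 7 members and negative in H4 for 6 of 7. KIF18A, a kinesin that dampens chromosome oscillations at the metaphase plate, had the largest difference of any member. It was 9.28 and 9.79 in HCT116 knockout clones 7 and 21, against 8.13 and 8.83 in wild-type clones 24 and 27. Both knockouts were higher than both wild-type clones, but those wild-type clones differed from each other by more than for any other member, with an SD of 0.49 (n = 2). Its difference was 1.06 (SE 0.23, 95% interval 0.56 to 1.56), which is 2.08-fold, at an adjusted p of 0.137 by limma. It ranged between 0.71 without clone 24 and 1.41 without clone 27, and passed the test only without knockout clone 7, at 1.31 and an adjusted p of 0.0467. With the spread taken from HCT116 arrays alone its adjusted p was 0.598. In H4 KIF18A differed by -0.16 and in 42MGBA by 0.06.

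HMMR, which binds microtubules at spindle poles, was 8.83 and 9.21 in HCT116 knockouts, against 8.55 and 8.82 in wild-type clones. The groups met almost at 1 value, and the difference was 0.33 (SE 0.20, adjusted p = 0.745 by limma). KIF4A, a chromosome kinesin, was 6.85, 6.43 and 6.68 on the 42MGBA arrays labelled deficient, against 6.68, 7.26 and 6.87 on those labelled corrected. Clone 53-7 alone stood above the others, and the difference was -0.29 (SE 0.18). KIF11, the motor that separates the poles, differed by -0.24 in H4, 0.06 in 42MGBA and 0.12 in HCT116, and TPX2, which activates AURKA on the spindle, by -0.14, -0.05 and 0.06.

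The 4 genes of the midzone and cytokinesis had differences of -0.15 to 0.17 in H4, of -0.12 to -0.05 in 42MGBA and of 0.03 to 0.10 in HCT116. ECT2, which starts the contractile ring, had the largest positive difference of the members in H4, 0.17 (adjusted p = 0.701 by limma). KIF23, PRC1 and ANLN, which bundle midzone microtubules or build the ring, lay between -0.15 and 0.01 in H4.

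MKI67, the Ki-67 proliferation marker, had the largest negative difference of the members in H4. It was 10.23, 9.35 and 9.72 on deficient arrays, against 10.41, 9.92 and 10.27 on corrected ones. Clones 10 and 12 lay below every corrected clone and the parental array did not, and the difference was -0.44 (SE 0.18, adjusted p = 0.243 by limma). It was -0.67 (adjusted p = 0.0293) without the parental array and -0.23 (adjusted p = 0.565) without clone 10. TOP2A, the topoisomerase that untangles sister chromatids, was 9.99 and 10.20 in HCT116 knockouts, against 9.75 and 9.66 in wild-type clones. Both knockouts were higher, with a difference of 0.38 (SE 0.16, adjusted p = 0.588), while in H4 TOP2A differed by -0.22.

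**Figure D4:**
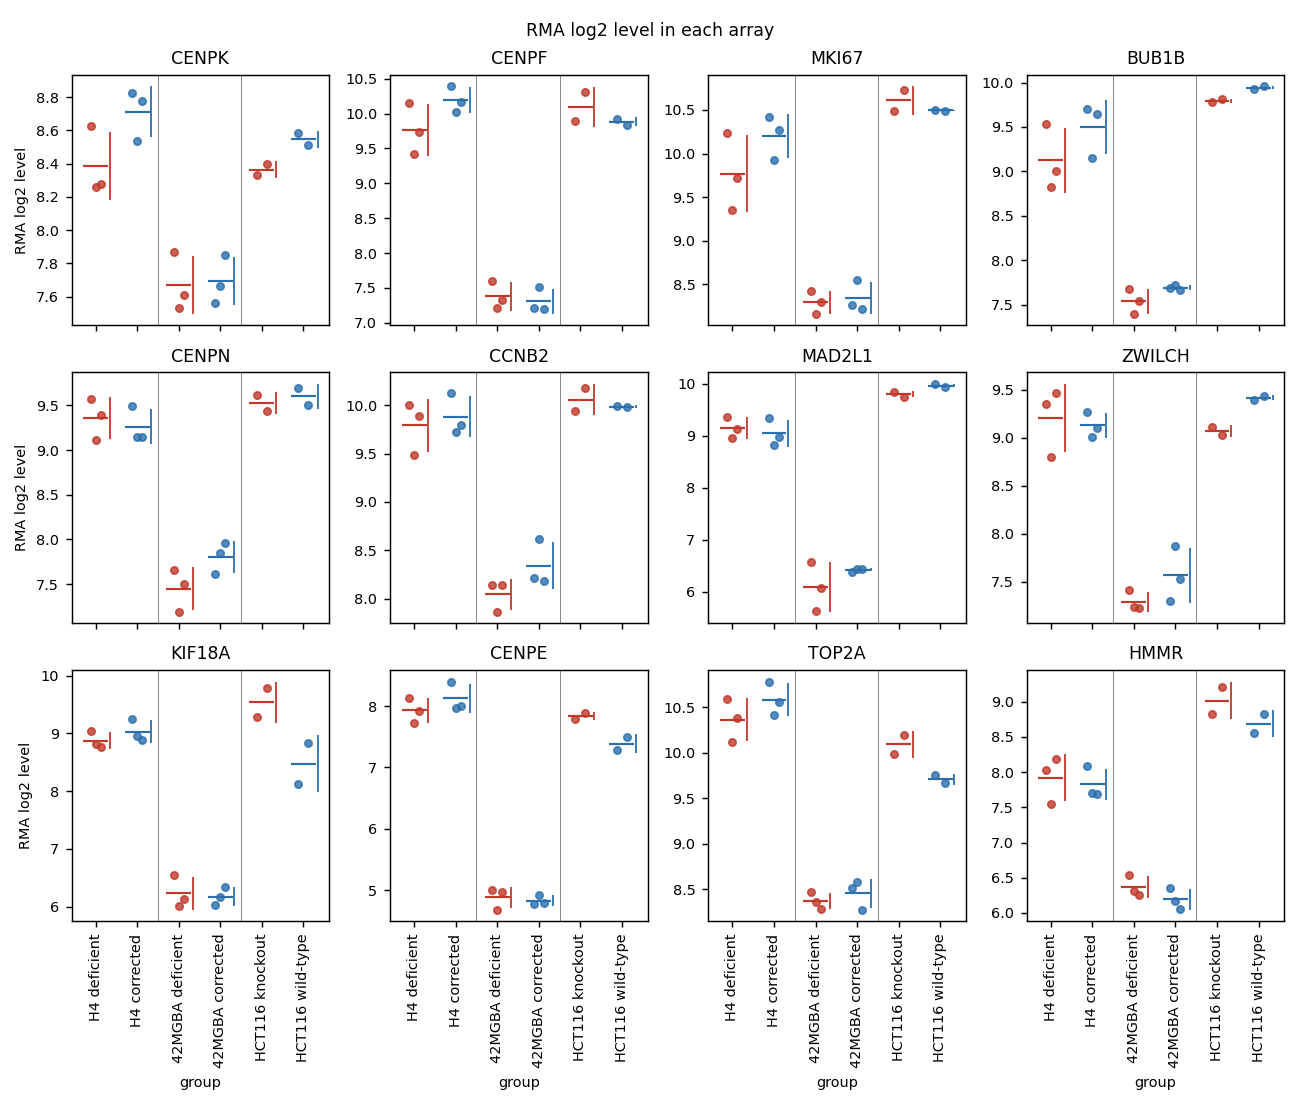
Log2 level on each array of members with the smallest p in H4, 42MGBA or HCT116, with deficient arrays left of proficient ones, a horizontal line at each group's mean and a vertical one for its SD. The parental H4 array lies among the corrected clones for CENPF, MKI67 and BUB1B, and the KIF18A points of HCT116 wild-type clones lie far apart.

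Whether a member's difference itself differed between lines was tested on the same arrays. Comparisons that include 42MGBA join log2 differences from arrays of unlike range, which limits them. H4 minus HCT116 was negative for 43 of 51 members, against 44.4% of genes, and 0 passed by limma, where 0.293% of genes did. At an unadjusted p under 0.05 there were 4 members, against 13.5% of genes. KIF18A had the lowest p there, -1.21 (SE 0.30, adjusted p = 0.101), with CENPE at -0.64 (adjusted p = 0.191) and TOP2A at -0.61 (adjusted p = 0.208). Without knockout clone 7 KIF18A passed, at -1.47 and an adjusted p of 0.0485. H4 minus 42MGBA and 42MGBA minus HCT116 had 0 members past the test, where 0.254% and 0.0231% of genes passed, and 0 and 2 at an unadjusted p under 0.05, against 11.3% and 4.85% of genes. The lowest adjusted p was 0.443 in H4 minus 42MGBA, for CENPN at 0.45, ahead of CENPF at -0.50 and CENPK at -0.31. It was 0.698 in 42MGBA minus HCT116, for KIF18A at -1.003, ahead of TOP2A at -0.47 and CENPE at -0.39. Of the 51 members, 22 were negative in both H4 and 42MGBA and positive in HCT116, where 12.5% of genes were. The mean of the 3 lines had 0 members past the test by limma, where 0.139% of genes passed, and 3 at an unadjusted p under 0.05, against 9.86% of genes, with a lowest adjusted p of 0.387.

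H4 and HCT116 were also compared with each other where STAG2 was intact, which sets the size of the STAG2 differences beside that of line differences. In corrected H4 cells against wild-type HCT116 cells, 16 of 51 members passed the limma test, or 31.4%, where 52.7% of all genes did, so the members' share was below the background. Of the 16, 5 were higher in H4 and 11 lower, where 23.7% of genes were higher and 29% lower. All H4 arrays stood above all HCT116 arrays of these groups for 11 members and below them for 27, where 31.5% and 41.4% of genes did. Spindle checkpoint genes were negative for 7 of 7, where 56.4% of all genes were. Of these 7, 4 passed (BUB3, MAD2L1, TTK and ZWINT), where 52.7% of all genes passed and 29% passed as lower.

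AURKB had the largest of these differences, with 8.52, 8.13 and 8.53 in corrected H4 cells, against 9.65 and 9.52 in wild-type HCT116 cells. The lines lay far apart, and it fell by 1.19 on the log2 scale (SE 0.16, adjusted p = 2.55e-05 by limma), a 2.28-fold difference. The difference was -1.003 for TTK (adjusted p = 0.000767), MAD2L1 had -0.92, PLK4, the centriole kinase, -0.87, HMMR -0.86, NUF2 -0.60 and BUB3, a checkpoint scaffold, -0.53. TOP2A, CENPE and FOXM1 were higher in H4, by 0.87 (adjusted p = 0.000134), 0.74 (adjusted p = 0.00068) and 0.62 (adjusted p = 0.0135). These 10 have the smallest p, and the other 6 that passed were KIF20A at 0.53, KIF18A at 0.56, SGO1 at -0.53, ZWINT at -0.49, ECT2 at -0.48 and ESPL1 at -0.46. Of the 10, FOXM1 and NUF2 lost the call when certain single arrays were left out, with adjusted p of up to 0.107 and 0.0939.

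Mitotic transcripts were well above the middle of each array in all 3 lines. The median percentile of the 51 members within an array was 85.5 in deficient and 87.2 in corrected H4 cells, 85.3 and 86.4 in 42MGBA cells labelled deficient and corrected, and 89.4 in knockout and 88.7 in wild-type HCT116 cells. All genes tested had medians of 69.5 to 70.4 by group. CENPH, of the constitutive centromere complex, was the lowest member in each group, at 29.1 to 49.8, and CCNB1 or BUB3 the highest, at 95.9 to 97.8. A percentile depends on a row's probes as well as on the RNA, so at most it ranks lines for 1 gene, and not genes within a line.

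Members separated between lines by percentile no more often than genes at large when 42MGBA was set against H4. On all 6 of its arrays 6 members stood above all H4 arrays (CDC25B, AURKB, INCENP, UBE2C, CENPK and NDC80), where 31.5% of genes did, and 15 stood below, where 33.1% did, so both shares (11.8% and 29.4% of members) were under the background. UBE2C, the ubiquitin-conjugating enzyme of the anaphase-promoting complex, spanned 92.3 to 94.1 in 42MGBA, against 78.9 to 84.4 in H4 and 85.4 to 87.4 in HCT116. CENPE spanned 45.0 to 49.6 in 42MGBA, against 70.3 to 78.6 in H4 and 65.0 to 72.8 in HCT116. SPC24, another NDC80 complex subunit, spanned 49.3 to 53.0 in 42MGBA, against 68.4 to 78.7 in H4 and 69.5 to 75.8 in HCT116. So UBE2C stood highest in 42MGBA and both kinetochore genes lowest, while H4 and HCT116 overlapped for CENPE and SPC24. Only the 42MGBA arrays stood on another scale, and a percentile need not remove what that does to single rows. A line difference and an effect of those arrays cannot be told apart here. Against HCT116, 3 members stood higher on all 42MGBA arrays and 31 lower, where 35.6% and 37.3% of genes did. H4 had 0 members above all HCT116 arrays and 19 below, where 21.5% and 26.6% of genes were.

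**Figure D5:**
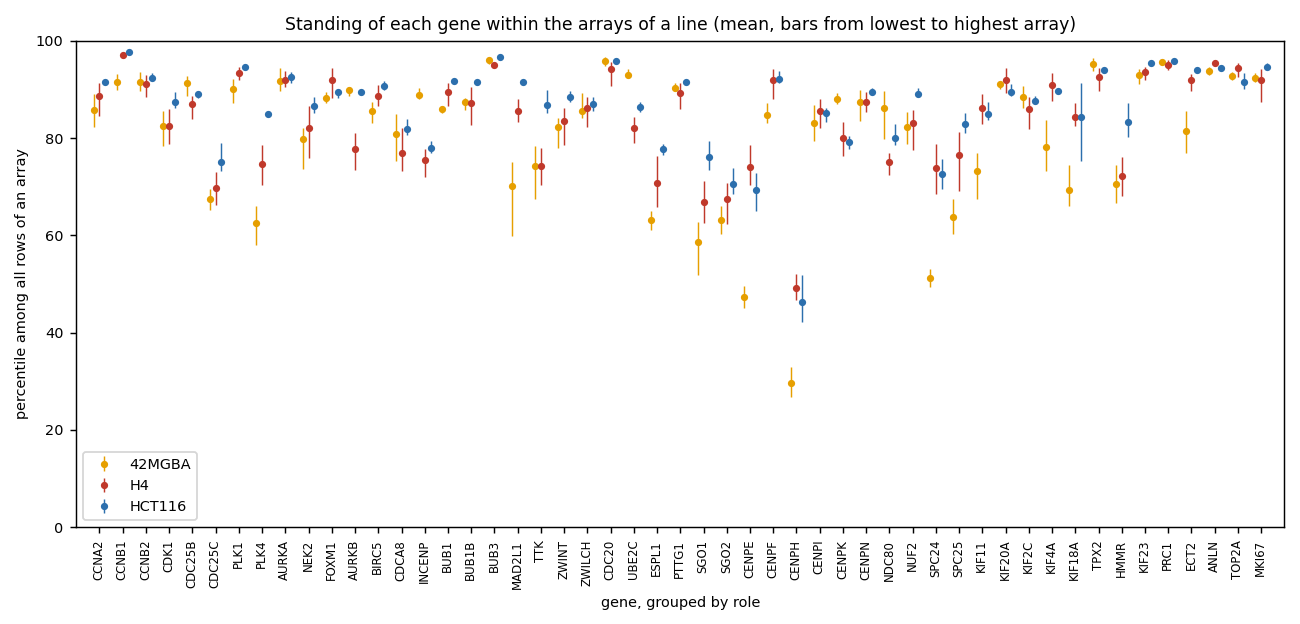
Percentile of each mitotic gene within its array in 42MGBA, H4 and HCT116 (points are line means, bars run between the lowest and highest array). CENPE and SPC24 lie far lower in 42MGBA than in H4 or HCT116, and UBE2C lies higher.

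Further genes of the same pathways, taken from lists outside the 51 members, add a pair of calls in H4. Of 14 inner kinetochore genes tested, 2 fell in deficient H4 cells and 0 rose, beside the 3.31% of all genes called there. The list was chosen with earlier results of these data known, so its share is a description and not a test. CENPU, a subunit of the constitutive centromere complex, was 6.82, 6.41 and 6.46 on deficient arrays, against 7.27, 6.92 and 7.06 on corrected ones, with every deficient array below every corrected one. It fell by 0.52 on the log2 scale (SE 0.13, adjusted p = 0.0429 by limma). HJURP, the chaperone that loads CENPA at centromeres, was 10.39, 10.27 and 10.31 in deficient cells, against 10.97, 10.67 and 10.71 in corrected ones, again without overlap. It fell by 0.46 (SE 0.12, adjusted p = 0.0481). Both calls are near the threshold: leaving out any 1 of the 6 H4 arrays except the parental one took CENPU to an adjusted p of 0.0588 or more, and leaving out any 1 of the 6 took HJURP to 0.0541 or more. With H4 fitted alone they had adjusted p of 0.169 and 0.124. In 42MGBA 12 of the 14 were negative and in HCT116 10, where 60.3% and 53.4% of all genes were, with 0 past the test by limma in either.

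Other lists held no member past the test in H4, 42MGBA or HCT116. They were 14 outer kinetochore genes, 15 subunits and inhibitors of the anaphase-promoting complex, 13 genes of MuvB, B-MYB and their partners, 35 other G2/M transcripts, 9 cell cycle brakes and the 39 G1/S genes. In H4 the means of 31 of 35 other G2/M transcripts and of 34 of 39 G1/S genes were lower in deficient cells, with medians of -0.13 and -0.16. Of all genes tested, 45.6% were lower there. Single arrays weighed on these lists too: median deviations were -0.30 and -0.33 on clone 10, but 0.20 and 0.16 on the deficient parental array. In HCT116 the 35 other G2/M transcripts had a median of 0.14 with 8 negative, where 53.4% of all genes were negative. Markers of other cell types were tested beside these. NCAM1, a neural adhesion gene, was the only one past the test, and fell by 1.25 in deficient H4 cells (adjusted p = 0.0487 by limma, and at most 0.154 with 1 array left out), while the summed log2 level of 15 neural and glial genes was 88.7 to 91.7 in deficient and 91.6 to 92.5 in corrected H4 cells. Its part in the mitotic values was not tested. The 15 colorectal epithelial genes summed to 88.3 to 93.1 and 90.1 to 94.3 in the same groups, and to 123.2 to 125.8 in HCT116 knockouts and 123.6 to 123.7 in HCT116 wild-type clones.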

How the data were processed

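The authors deposited log2 levels for 33297 rows of 16 Affymetrix arrays; per the submitters' processing notes these came from RMA in Affymetrix Expression Console. Its version and options are not given in the sources used here. Titles gave the groups. A single gene was annotated to 19460 rows (older symbols updated to RefSeq names), several to 1754, and none was listed for 12083. The brightest row stood for each of 18417 genes. The 12978 genes above an array's median on at least 2 arrays were tested.

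The deposited log2 values entered 1 limma 3.58.1 model (lmFit, contrasts.fit, eBayes; R 4.3.3) of the 6 groups, so each gene has 1 spread shared by all arrays. That spread does not follow the wider spread of members in H4 or the narrower one in HCT116. P-values are two-sided, with Benjamini-Hochberg adjustment over the tested genes and a threshold of 0.05; they measure the spread between clones, and array number limits the precision. The steps were tested on simulated data.

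Members and gene lists were chosen with earlier results of these data known. Named with values were the 6 members with the smallest p in each line, 10 between H4 and HCT116 and 3 per difference between lines; other members were named by role. KIF20A, the other 6 called between lines and the called genes of other lists were named after their values were seen. Alternatives covered the spread, filter, row per gene, scaling, prior, array weights, averaged sister clones, parental arrays, single arrays and, from the clone names, parent clone as a block in 42MGBA. Promoters came from RefSeq windows of GRCh38.p14.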

Additional observations from a re-analysis of the deposited data

Results flagged for a closer look

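The STAG2 transcript itself differed between lines in its difference by STAG2 status, by a test of that difference in limma. H4 minus 42MGBA was -1.89 (SE 0.26, adjusted p = 0.00902), and 42MGBA minus HCT116 was 2.14 (SE 0.29, adjusted p = 0.014). The transcript was lower on each deficient array of H4 and on each knockout array of HCT116, and its 42MGBA groups overlapped. The narrower range of the 42MGBA arrays also limits these tests. None of the 51 mitotic genes met such a test between lines.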

How the results depend on the processing

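Most results stayed on their side of the threshold under the alternatives, but most differences by STAG2 status had not passed it in the fit reported. In H4 the count of mitotic genes called was 0 of 51, where 429 of 12978 genes were called. It became 4 of 51 without the parental arrays of H4 and 42MGBA, where 633 of 12978 genes were called. These 4 were CENPK, CENPF, MKI67 and BUB1B, all lower in deficient cells (adjusted p from 0.0335 to 0.0402 by limma). Leaving out 1 array at a time gave 0 to 3 members. It gave 3 only without the parental H4 array, where 631 of 12978 genes were called. The members' calls thus came with more calls among all genes, and their share was not tested against that background. The H4 median ranged between -0.26 and 0.02 with single arrays left out and was -0.01 with array quality weights; its sign turned without clone 10. In 42MGBA it ranged between -0.22 and 0.03, and turned without clone 53. In HCT116 leaving out 1 array gave 0 to 1 genes called and a median between 0.032 and 0.14; the 1 gene was KIF18A, which also made the count 0 to 1 in H4 minus HCT116. Between corrected H4 and wild-type HCT116 cells the count of 16 became 27 with array quality weights and 9 to 19 with single arrays left out, the lowest without wild-type clone 24 (9) or 27 (10).

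With parent clone 53 or 92 as a block in 42MGBA, fitted on its arrays alone without the parental one, 0 mitotic genes were called. At an unadjusted p under 0.05 there were 14 of 51 (27.5%, against 7.95% of all genes), and the median was -0.23 with 47 of 51 negative. Without the parental arrays and with no block there were 9 (17.6%, against 5.33%), and the median was -0.22. The fit reported had 1 (1.96%, against 3.95%). No block could be made in H4 or HCT116, whose clones share no parent across groups. The block changed no call. Each line fitted alone gives no test between lines, so those results have no value there; STAG2 in HCT116 then had an adjusted p of 0.0616. The mean of H4 and HCT116 only, an alternative chosen after seeing the data, had 0 mitotic genes called.

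The number of all genes called in H4 ranged between 34, with H4 fitted alone, and 633, without the parental arrays, against 429 in the fit reported. With each line fitted alone, 2 members in H4 had an unadjusted p under 0.05 by limma (3.92%, against 14.5% of genes). There was 1 such member in 42MGBA (1.96%, against 4.14%) and 5 in HCT116 (9.80%, against 7.65%). The fit reported had 5, 1 and 3. A line fitted alone also has fewer arrays for its spread. Between corrected H4 and wild-type HCT116 cells, array quality weights called 7937 of 12978 genes beside 27 of 51 members. The fit reported called 6844 genes and 16 members there. Of the single-gene values, 1042 kept their side of the threshold, 51 lost it and 9 gained it, and none changed sign. Of the 51, 45 were for CENPU (14), HJURP (15) and NCAM1 (16) in H4. Most single-gene values had not passed the threshold in the fit reported, so keeping their side says little of a difference. The median half-width of a member's 95% interval was 0.35 (H4, 42MGBA) and 0.43 (HCT116), and signal over background was not available to set a detection limit.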
